A study of Homo sapiens with 6 samples.

Results

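The 10 imprinted genes described here were followed through K562 cells that had been transfected with an siRNA and treated with all-trans retinoic acid (ATRA). They were DLK1, MEG3, H19, IGF2, PEG10, PEG3, MEST, SNRPN, CDKN1C and GRB10. Their members on the array were all probe sets that the platform annotation pairs with one of these 10 genes, which gave 44 of 54613 probe sets. Of these, 27 probe sets were paired with a single member gene and covered 8 genes. The other 17 were paired with further genes as well, including every probe set of H19 (shared with MIR675) and of IGF2 (shared with INS-IGF2), so no value is credited to H19 or IGF2 alone. The set was chosen by measured values: DLK1 was brought in because its signal was higher with the siRNA in these same arrays, and the other genes were added as imprinted genes. For that reason the differences between siRNA and scrambled RNA below are a description of the members, with no test. ATRA against DMSO, and the difference between the siRNA effects under the 2 treatments, were not used in the choice and were tested.

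K562, an established human cell line, was derived from chronic myeloid leukaemia. Cells in culture were nucleofected with an siRNA that the labels call RNAi8 or with a scrambled control RNA (scrRNA), each at up to 200 nM, and 24 hours later received ATRA or its solvent control DMSO. Each of the 3 independent experiments gave an siRNA array and a scrambled array. Experiments 1 and 3 used ATRA and experiment 2 used DMSO, so the groups were siRNA with ATRA (2 arrays), scrambled RNA with ATRA (2 arrays), siRNA with DMSO (1 array) and scrambled RNA with DMSO (1 array). All 6 samples carried a transfection, and the whole study rests on 1 cell line. PRAME, the gene the series is about, had a log2 expression of 12.13, 12.14 and 12.10 with the siRNA in experiments 1, 2 and 3, against 13.0, 12.99 and 12.70 with scrambled RNA. The 8 measured K562 markers, among them GATA1, KLF1 and TFRC, were all at or above the median of all probe sets (5.99), with a median level of 10.54. Of markers of other cell types, 2 of 5 T lymphocyte genes (median 5.42), 2 of 4 B lymphocyte genes (6.31), 3 of 7 stromal genes (5.72) and 5 of 8 epithelial and liver genes (8.37, EPCAM at 11.54 but CDH1 at 4.85) were that bright. In RNA from whole cultures, fewer cells with a transcript and less of it per cell cannot be told apart.

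Values are log2 expression after RMA, a method that corrects, normalises and summarises the probes of each probe set. A probe set with a mean below 5.99 over the 6 arrays is called dim here, since such a signal was not shown to be above background, and the others are called bright. Levels of different probe sets were not compared with each other, because probes differ in how strongly they bind. Experiment 3 stood apart from the others. Its arrays correlated with those of experiments 1 and 2 at 0.979 to 0.981 at the lowest, against 0.996 to 0.998 among those 4 arrays. The gap between the 3' and 5' probe sets of actin, which widens as RNA degrades, was 2.98 and 3.36 in experiment 3, against 0.63 to 0.92 elsewhere (log2 units).

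Imprinted genes are transcribed mainly from the copy inherited from one parent, under DNA methylation marks that are set in the germ line and copied at each division. Many of them control fetal and placental growth, and several lie in clusters in which a protein-coding gene active on the paternal copy is paired with a long noncoding RNA active on the maternal copy. DLK1 and MEG3 on chromosome 14 form such a pair, with only the microRNA gene MIR2392 listed between them in RefSeq, and IGF2 and H19 on chromosome 11 form another. The arrays measured RNA from both parental copies together and so carry no information on which copy was read.

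The start regions of MEG3, MEST and GRB10, which held the own probe sets that differed most between the 2 ATRA experiments, are shown because the methylation marks of imprinting sit on CpG dinucleotides. RefSeq sequences around annotated starts were found for 5 of the 10 genes, in 18 windows on GRCh38.p14. For each of the 3 genes the window with the most CpG is printed 5′ to 3′ in the direction of transcription, with every CpG in capitals. The MEG3 window is chr14:100825858-100826157 on the plus strand.
MEG3: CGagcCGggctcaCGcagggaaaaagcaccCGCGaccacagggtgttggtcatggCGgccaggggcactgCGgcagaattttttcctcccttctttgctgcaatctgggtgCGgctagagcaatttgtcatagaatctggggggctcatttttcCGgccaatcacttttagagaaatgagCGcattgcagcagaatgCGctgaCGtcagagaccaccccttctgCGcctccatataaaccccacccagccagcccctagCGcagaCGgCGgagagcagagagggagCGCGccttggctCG
The MEST window is chr7:130491835-130492134 on the plus strand.
MEST: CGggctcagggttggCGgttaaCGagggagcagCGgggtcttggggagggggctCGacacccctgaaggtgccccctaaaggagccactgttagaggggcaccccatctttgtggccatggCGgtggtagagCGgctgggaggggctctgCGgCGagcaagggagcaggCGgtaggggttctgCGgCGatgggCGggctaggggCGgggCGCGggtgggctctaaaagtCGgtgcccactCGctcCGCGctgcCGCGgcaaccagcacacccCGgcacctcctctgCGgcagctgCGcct
The GRB10 window is chr7:50792825-50793124 on the minus strand.
GRB10: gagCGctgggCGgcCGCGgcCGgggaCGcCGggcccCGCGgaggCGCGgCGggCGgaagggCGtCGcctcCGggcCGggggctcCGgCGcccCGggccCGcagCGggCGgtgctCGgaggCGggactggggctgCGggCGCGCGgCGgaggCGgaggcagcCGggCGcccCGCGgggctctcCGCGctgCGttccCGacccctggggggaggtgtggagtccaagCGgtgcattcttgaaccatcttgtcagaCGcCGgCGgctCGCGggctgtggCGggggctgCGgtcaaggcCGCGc
These windows held 19, 25 and 49 CpG for MEG3, MEST and GRB10 in that order, against a median of 14 over 35116 windows of all genes. GRB10 exceeded 98.4% of all windows in CpG number, MEST 68.0% and MEG3 57.1%. Each printed window was picked for the most CpG of its gene, so a high rank is partly built in. Methylation was not measured, so no window was shown to carry an imprint. The other GRB10 windows held 44, 24, 4 and 3 CpG. The motif TGACGTCA, the cyclic AMP response element, started at base 201 of the printed MEG3 window and was present in all 3 overlapping MEG3 windows, in none of the other 15 member windows and in 1.85% of all windows (either strand). The half-site AGGTCA, which retinoic acid receptors bind in pairs, was present in 2 of the 18 member windows and in 13.8% of all windows (either strand), and it was not in the letters of the 3 printed ones. A match in letters is not a shown binding site.

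The own probe sets of the members were sorted into bright and dim. The cut was the median of all probe sets, so 27398 of all 54613 were bright. By brightest own probe set, 6893 of 19775 genes were dim. Some markers of other cell types were bright as well, so a bright probe set does not by itself show that its gene is expressed. Of the 8 genes with an own probe set, 6 had at least 1 bright one: DLK1 with 1 of 2, MEG3 with 6 of 10, PEG10 with 1 of 2, MEST with its only one, CDKN1C with 4 of 5 and GRB10 with all 4. PEG3, a zinc finger protein gene active on the paternal copy, was dim on both own probe sets, between 3.04 and 4.21 on every array. SNRPN, which encodes a spliceosomal Sm protein and lies in the Prader-Willi region of chromosome 15, was dim on its only own probe set, between 3.52 and 3.86. PEG10, a gag-pol-like gene derived from a retrotransposon, lay between 6.43 and 6.49 on its bright probe set and between 3.35 and 3.57 on its dim one, so that its bright signal was just above the dim range and moved by less than 0.1 log2 units over the 6 arrays.

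Of the 17 shared probe sets 13 were dim. The one paired with PEG3 and its neighbour ZIM2 was bright, between 6.09 and 6.32, in contrast to the own probe sets of PEG3. The bright probe set paired with H19, a maternally expressed noncoding RNA, and with MIR675, the microRNA inside it, lay between 6.56 and 7.04, and the dim one between 5.03 and 5.21. Of the 3 probe sets paired with IGF2, the fetal growth factor, and INS-IGF2, 1 was bright, between 6.31 and 6.61, and the others lay between 4.69 and 6.07. Of the 11 probe sets that pair SNRPN with its neighbours, 1 was bright (6.38 to 6.45).

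**Figure D1:**
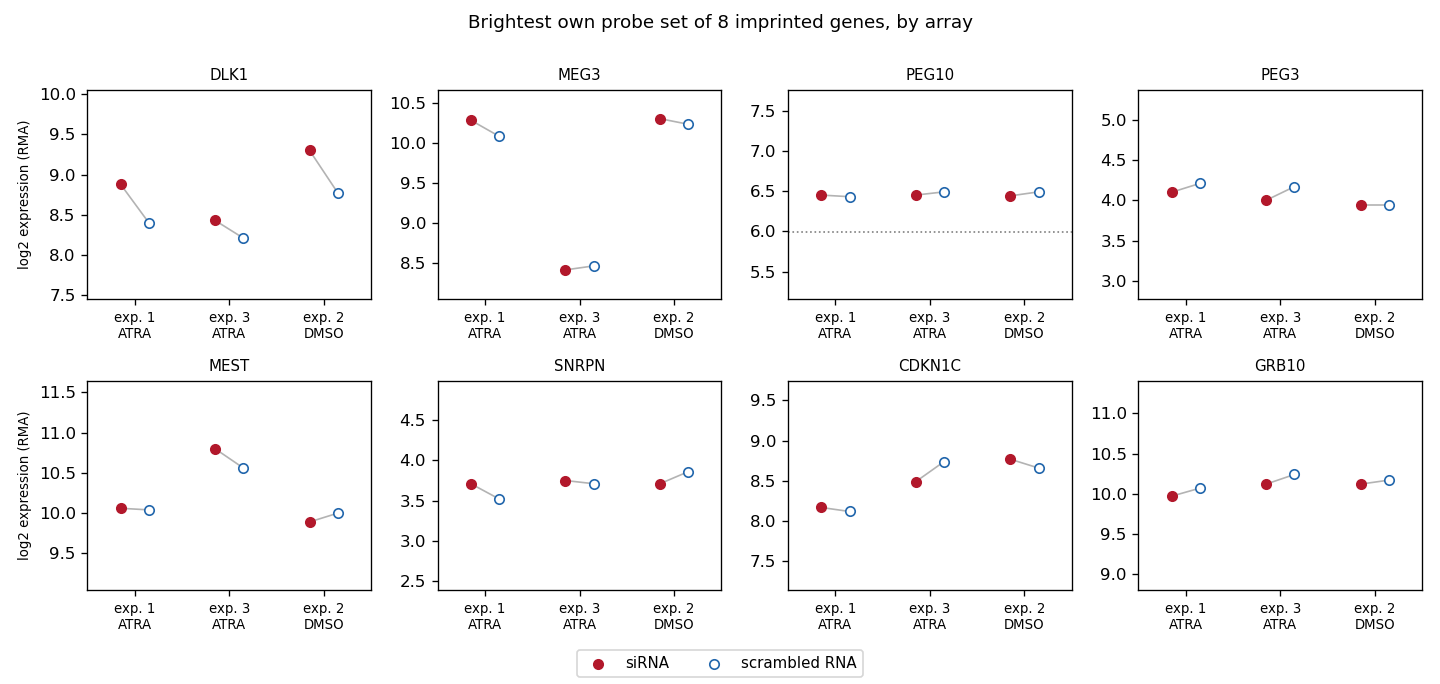
Log2 expression (RMA) of the brightest own probe set of each of 8 imprinted genes. Each panel gives experiment 1 (ATRA), experiment 3 (ATRA) and experiment 2 (DMSO), with siRNA as filled red points, scrambled RNA as open blue points and a grey line joining arrays of the same experiment. The dotted line, where it falls in the panel, is the median of all probe sets, 5.99. The siRNA point of DLK1 is the higher one in each experiment, MEG3 is lower and MEST higher in experiment 3, and PEG3 and SNRPN lie below 5 throughout.

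DLK1 encodes a membrane protein with EGF-like repeats that is related to the Notch ligands and marks immature cells such as preadipocytes. On its bright probe set (209560_s_at) the siRNA arrays of experiments 1, 2 and 3 read 8.88, 9.30 and 8.43, against 8.40, 8.77 and 8.21 with scrambled RNA. Each siRNA array was above the scrambled array of its own experiment, while the 2 groups overlapped across experiments. The differences were 0.48 under ATRA in experiment 1, 0.53 under DMSO in experiment 2 and 0.21 under ATRA in experiment 3. Their mean was 0.41 with an SD of 0.17, a signal 1.33-fold that with scrambled RNA. Levels averaged 8.87 ± 0.44 for siRNA arrays, against 8.46 ± 0.28 for scrambled arrays (SD, n = 3 each). The dim DLK1 probe set (235600_at) lay between 5.60 and 5.68 on all 6 arrays and its 3 differences were 0.02, -0.02 and 0.00.

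The same DLK1 probe set was read against treatment, which the choice of members did not use. Under ATRA it stood at 8.88 and 8.43 with the siRNA and at 8.40 and 8.21 with scrambled RNA, against 9.30 and 8.77 under DMSO. Within each RNA, both ATRA arrays were below the DMSO array, although the siRNA array of experiment 1 was above the scrambled DMSO array. The experiment means were 8.64 and 8.32 under ATRA, against 9.03 under DMSO. The difference was -0.55 ± 0.28 (SE; 2 ATRA experiments, 1 DMSO experiment), with a 95% interval of -1.45 to 0.35, and missed the test (limma on experiment means, adjusted p = 0.995). In that test 0 of 54613 probe sets passed (0% called), 456 had an unadjusted p below 0.05, and 0 of the 44 member probe sets passed. The smallest adjusted p of any probe set in this limma fit was 0.995. Even CYP26A1, higher than in experiment 2 by 5.6 log2 units in experiment 1 and 6.29 in experiment 3, was not called. A miss in this test thus says little about any gene. With 3 experiments in a 2 against 1 layout, the treatment cannot be told apart from what else differed between experiments. Experiments 1 and 2, whose arrays were alike, gave a DLK1 difference of -0.39 (limma over their 4 arrays, adjusted p = 0.108). There 0.178% of probe sets were called and 0 member probe sets. When the experiment was a random block over 6 arrays, 0.00366% were called, again with 0 members.

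The genes whose pattern over the 6 arrays was most like that of DLK1 were looked up among 4218 genes with a bright leading probe set and a range of at least 0.5. HELZ2 (Pearson r = 0.974), POGK (0.96), MS4A4A (0.96), CRYBG1 (0.94) and SPHK1 (0.93) led, and 10 genes (0.237%) reached 0.9. HELZ2, a helicase that coactivates nuclear receptors, was at 6.70, 6.95 and 6.45 with the siRNA in experiments 1, 2 and 3, against 6.54, 6.68 and 6.29 with scrambled RNA. MS4A4A, a tetraspanning membrane protein of myeloid cells, was at 9.38, 9.65 and 9.28 with the siRNA, against 9.13, 9.45 and 9.01 with scrambled RNA. Such a likeness to DLK1 is what these genes were picked for. The 3 siRNA differences of POGK were 0.21, 0.15 and 0.01, the last of them small. The neighbouring MEG3 had an r of 0.72 with DLK1 over the same 6 arrays, which share 3 experiments and are not 6 independent points.

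MEG3 is a maternally expressed long noncoding RNA known for raising p53 activity. Its brightest probe set (226210_s_at) read 10.28 and 10.08 in experiment 1 and 8.42 and 8.47 in experiment 3 with siRNA and scrambled RNA under ATRA, against 10.30 and 10.23 under DMSO. Only the arrays of experiment 3 were low, and those of the other ATRA experiment overlapped DMSO. Probe set 226211_at followed the same course at 9.78 and 9.59 in experiment 1 and 7.35 and 7.70 in experiment 3, against 9.90 and 9.74 under DMSO. Probe set 235077_at had 7.96 and 7.35 in experiment 1 and 6.35 and 6.46 in experiment 3, against 8.10 and 7.91 under DMSO. These 3 probe sets differed by -1.74, -2.16 and -1.25 log2 units between experiments 3 and 1, both under ATRA, and 2.28% of all probe sets were lower in experiment 3 by at least 1.

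The other 3 bright MEG3 probe sets did not share that difference. Experiment 3 minus experiment 1 was -0.08 for 210794_s_at, 0.26 for 212732_at and -0.07 for 242246_x_at, so that probe sets of 1 gene differed by over 2 log2 units in what they recorded. The larger gap between actin 3' and 5' signals of experiment 3 moved with the 3 low probe sets, and its part in them was not tested. Of 4218 genes compared, 955 (22.6%) followed the brightest MEG3 probe set with a Pearson r of at least 0.9, led by CXXC5, M6PR, ZBTB7A, KIFC1 and TCF25. TCF25, for example, had 10.44 and 8.16 with siRNA under ATRA in experiments 1 and 3, against 10.50 under DMSO.

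**Figure D2:**
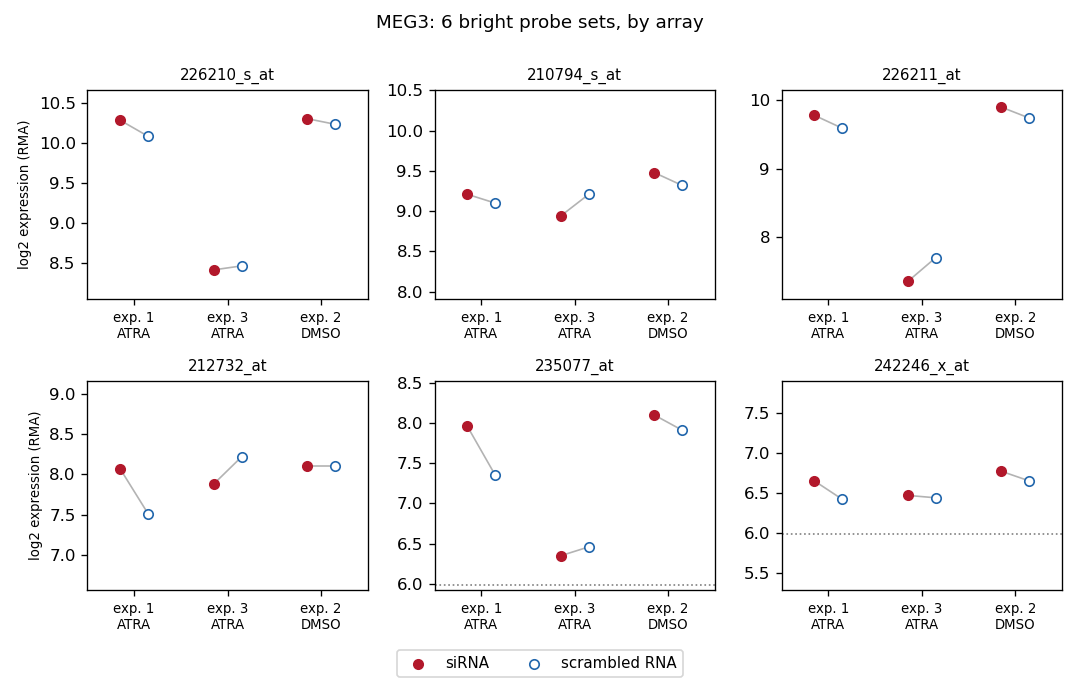
Log2 expression (RMA) of the 6 bright MEG3 probe sets, by experiment and treatment, with siRNA as filled red points and scrambled RNA as open blue points. The dotted line, where it falls in the panel, is the median of all probe sets, 5.99. Probe sets 226210_s_at, 226211_at and 235077_at are low in experiment 3, while 210794_s_at, 212732_at and 242246_x_at are not.

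All 6 bright MEG3 probe sets had a lower mean in both ATRA experiments than under DMSO, as had 36% of all probe sets. Between experiments 1 and 2 the differences ran from -0.08 for 226210_s_at to -0.35 for 235077_at, and none was called. The one MEG3 probe set whose 4 ATRA arrays all lay below both DMSO arrays was 210794_s_at, with 9.21, 9.10, 8.94 and 9.21 under ATRA, against 9.48 and 9.32 under DMSO. Its difference was -0.28 ± 0.25 (SE), and the adjusted p of limma on experiment means was 0.995. A separation downwards of that kind occurred in 11.8% of all probe sets and one upwards in 11.1%. With the siRNA, the brightest MEG3 probe set differed by 0.20, 0.06 and -0.05 in experiments 1, 2 and 3 (mean 0.07), and of the 10 own probe sets only 242246_x_at (0.23, 0.13 and 0.03) and the dim 227390_at (0.27, 0.02 and 0.08) were higher in each experiment.

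CDKN1C encodes a cyclin-dependent kinase inhibitor that holds cells in G1 and is expressed from the maternal copy. Its 3 probe sets with the suffix x_at, which marks probes that can also bind other sequences, gave one picture. On 213182_x_at the ATRA arrays read 6.86, 6.89, 6.54 and 6.70, against 7.31 and 7.37 under DMSO. On 216894_x_at they read 7.15, 7.08, 6.72 and 6.80, against 7.58 and 7.61 under DMSO. All 4 ATRA arrays were below both DMSO arrays on each of these 3 probe sets, and the differences were -0.59 ± 0.21, -0.66 ± 0.25 and -0.68 ± 0.26 (SE) for 213182_x_at, 216894_x_at and 219534_x_at. None passed limma on experiment means (adjusted p = 0.995 each, unadjusted p = 0.0638, 0.0778 and 0.0816).

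The brightest CDKN1C probe set (213348_at) went partly another way. It read 8.17 and 8.12 in experiment 1 and 8.49 and 8.74 in experiment 3 under ATRA, against 8.77 and 8.66 under DMSO, so that the scrambled array of experiment 3 lay between the DMSO arrays. Its difference from experiment 2 was -0.57 in experiment 1 but -0.10 in experiment 3. In experiment 1 against 2 alone, the 4 bright CDKN1C probe sets differed by -0.57, -0.48, -0.48 and -0.46, with adjusted p values of limma over those 4 arrays between 0.0596 and 0.128, so none was called. The mean siRNA differences of these 4 probe sets were -0.03, -0.01, -0.03 and -0.08.

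GRB10, an adaptor protein that dampens signalling from insulin and IGF1 receptors, had probe sets that pointed in different directions. Probe set 209409_at read 9.82 and 9.78 in experiment 1 and 10.59 and 10.40 in experiment 3 under ATRA, against 9.73 and 9.62 under DMSO. Probe set 209410_s_at read 9.10, 9.10, 8.87 and 8.98 under ATRA, against 9.19 and 9.19 under DMSO. The first lay above DMSO on all 4 ATRA arrays and the second below it. Their differences were 0.47 ± 0.42 and -0.17 ± 0.26 (SE), and neither passed limma on experiment means (adjusted p = 0.995 each). The brightest probe set, 210999_s_at, overlapped between treatments, with a difference of -0.05.

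**Figure D3:**
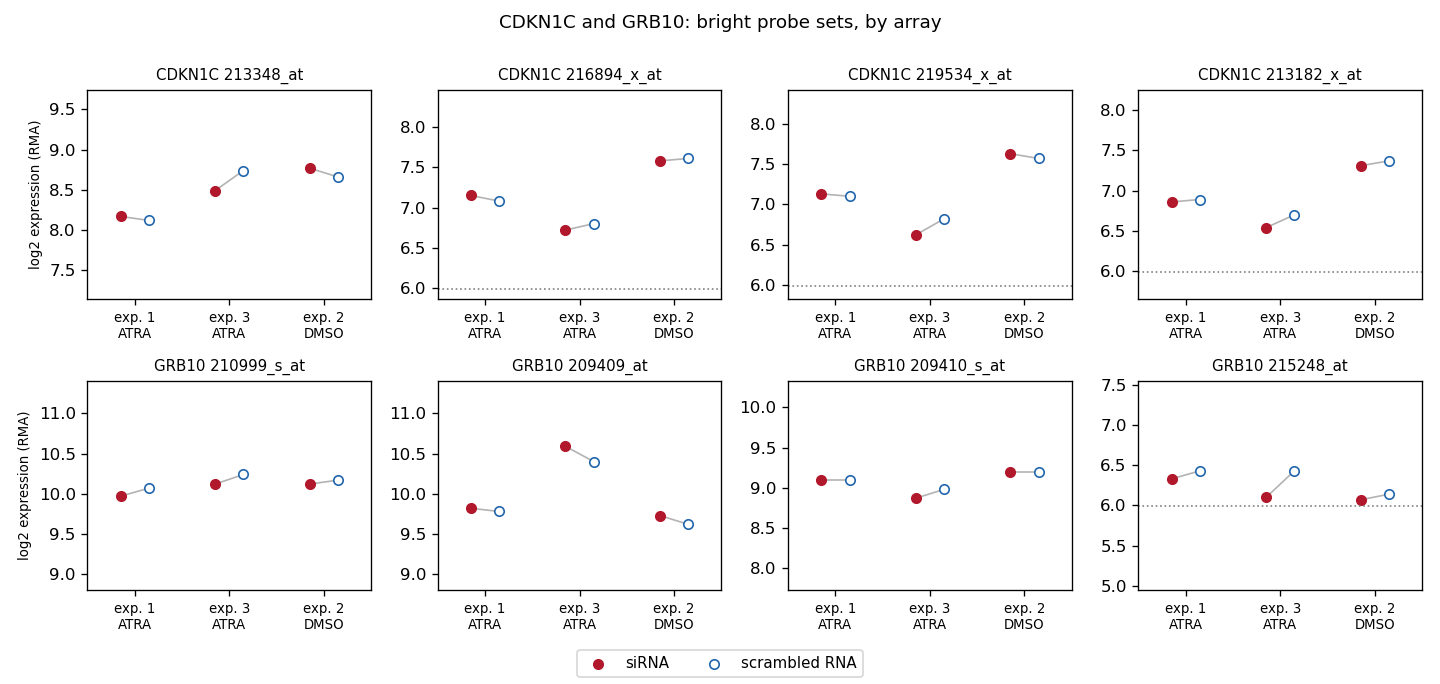
Log2 expression (RMA) of the 4 bright probe sets of CDKN1C (top row) and of GRB10 (bottom row), by experiment and treatment, with siRNA as filled red points and scrambled RNA as open blue points. The dotted line, where it falls in the panel, is the median of all probe sets, 5.99. On the 3 x_at probe sets of CDKN1C every ATRA array is below both DMSO arrays, and GRB10 209409_at is high in experiment 3 alone.

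MEST, a paternally expressed gene for a membrane protein with a hydrolase fold, was bright on its single probe set. It read 10.06 and 10.04 in experiment 1 and 10.80 and 10.56 in experiment 3 under ATRA, against 9.89 and 10.00 under DMSO. All 4 ATRA arrays lay above both DMSO arrays, but by 0.10 on average in experiment 1 and by 0.74 in experiment 3. MEST and GRB10 209409_at were the 2 own probe sets higher in experiment 3 than in experiment 1 by at least 0.5, as were 6.67% of all probe sets. The difference was 0.42 ± 0.40 (SE), with a 95% interval of -0.85 to 1.68, and missed limma on experiment means (adjusted p = 0.995). Between experiments 1 and 2 alone the adjusted p was 0.508. The dim PEG3 probe set 209242_at was above DMSO on all 4 ATRA arrays as well (4.10, 4.21, 4.0 and 4.17 under ATRA, against 3.94 and 3.94 under DMSO), as was the dim DLK1 probe set.

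Over the 27 own probe sets, 6 had a higher and 18 a lower mean in both ATRA experiments than under DMSO, against 29.9% and 36% of all probe sets. Of these 18, 9 belong to MEG3 and 5 to CDKN1C, and probe sets of 1 gene are not independent. By brightest own probe set, 2 of the 8 genes were higher and 4 lower, against 31.6% and 36.5% of all genes. The median difference over the 27 was -0.11, against -0.01 over all probe sets. All 4 ATRA arrays lay above both DMSO arrays in 4 of the 27, against 11.1% of all probe sets, and below in 5, against 11.8%. They are dim probe sets of DLK1 and PEG3 and bright ones of MEST and GRB10 above, and probe sets of MEG3, CDKN1C and GRB10 below. The bright DLK1 probe set had a lower mean in both ATRA experiments. The 5 below come from 3 genes, since 3 of them belong to CDKN1C. With experiment 3 set against experiment 2 alone, limma over their 4 arrays called 9 of the 27, of which 2 were higher and 7 lower in experiment 3, but it called 25.4% of all probe sets too. The 9 were the bright DLK1 probe set (-0.71), 3 of MEG3 (-1.82, -2.30 and -1.60), 3 of CDKN1C (-0.83, -0.88 and -0.72), MEST (0.74) and 1 of GRB10 (0.82). Such a comparison of 2 experiments has arrays of the same experiment as its replicates and does not separate ATRA from the experiment.

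**Figure D4:**
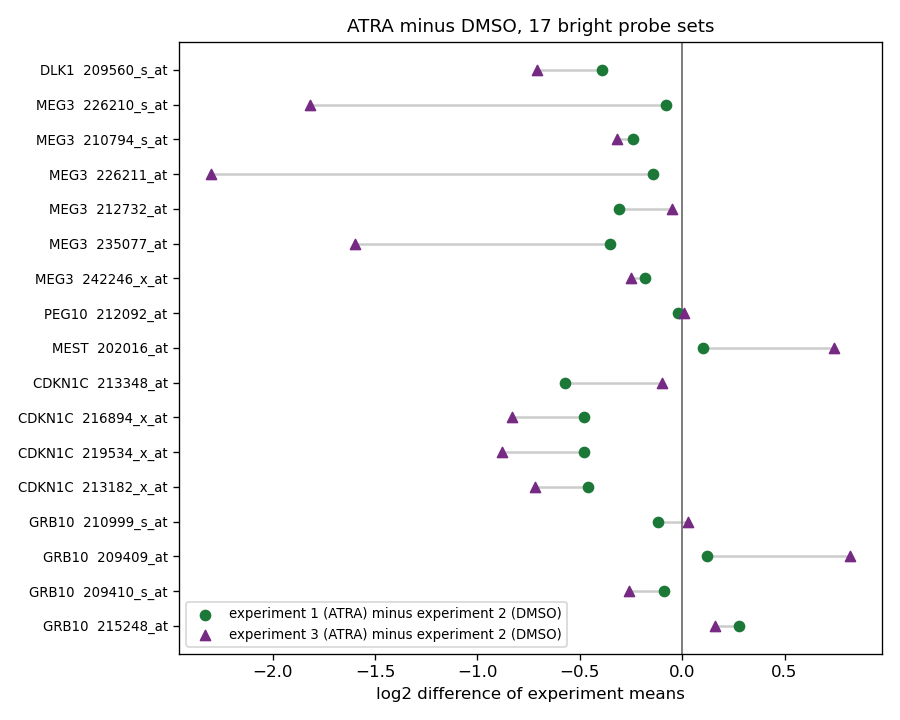
Log2 difference of experiment means between each ATRA experiment and the DMSO experiment, for the 17 bright own probe sets. Green circles are experiment 1 and purple triangles experiment 3, each minus experiment 2. DLK1, all CDKN1C probe sets, GRB10 209410_s_at and all 6 MEG3 probe sets lie left of 0 in both. The 3 widest gaps between the symbols belong to MEG3.

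Whether the siRNA effect on the members depended on ATRA was asked by setting the effect seen with ATRA against that seen with DMSO. For DLK1 the effect was 0.48 and 0.21 under ATRA, against 0.53 under DMSO, which differ by -0.18 (95% interval -1.27 to 0.90). With the arrays paired by experiment the interval of that difference was -0.56 to 0.19. In limma on the 4 groups 0 of 54613 probe sets passed (0% called), 702 had an unadjusted p below 0.05 and none of the 27 own probe sets did. Of the 17 shared probe sets 5 did, all of them dim ones that pair SNRPN with small nucleolar RNAs, with an adjusted p of 1 each, and with the arrays paired by experiment 1 of the 17 did. The 5 differed in sign, with 0.36 for 1559343_at, 0.37 for 1559545_at and 0.28 for 221974_at. For 1559342_a_at and 1559546_s_at the difference was -0.34 and -0.32.

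Over all own probe sets the siRNA differences ran from -0.17 to 0.41 with a median of 0.00, which is also the median of all probe sets. The bright DLK1 probe set had the largest mean difference in size among the 27, as its selection entails. An siRNA array above the scrambled array in all 3 experiments was seen for 4 of the 27, against 12.3% of all probe sets, and one below it for 3, against 11.3%. The 4 were 209560_s_at of DLK1, 2 probe sets of MEG3 and 209409_at of GRB10 (0.03, 0.11 and 0.19). DLK1 was brought in for its higher siRNA signal, so its place among the 4 is no result. The 3 were 210999_s_at (-0.09, -0.05 and -0.13) and 215248_at (-0.09, -0.07 and -0.33) of GRB10 and 213182_x_at of CDKN1C. GRB10 thus had probe sets on both sides. In limma with treatment as a covariate 0 of 54613 probe sets passed for the siRNA (0% called; 657 with an unadjusted p below 0.05). Blocking on experiment, 1 passed (0.00183% called).

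**Figure D5:**
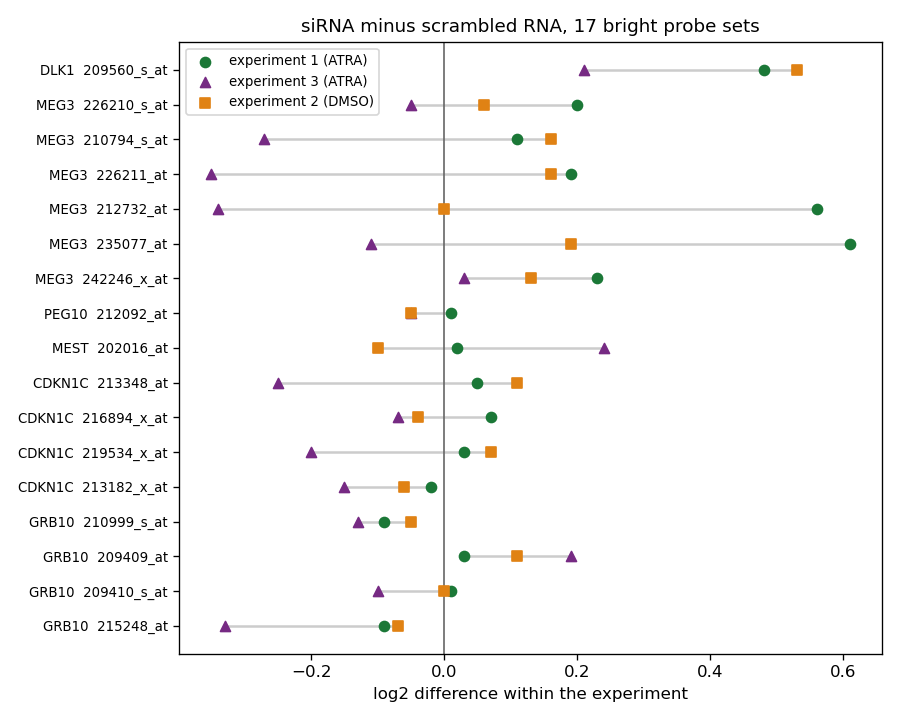
Log2 difference between the siRNA array and the scrambled array of the same experiment, for the 17 bright own probe sets. Green circles are experiment 1 (ATRA), purple triangles experiment 3 (ATRA) and orange squares experiment 2 (DMSO). All 3 DLK1 symbols lie right of 0, between 0.21 and 0.53, while most other probe sets have symbols on both sides of 0. DLK1 was brought in for its higher signal with the siRNA.

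The 4 further lists were read in the same fits, each gene by its brightest own probe set. Of 50 other imprinted genes, 15 had a higher and 18 a lower mean in both ATRA experiments than under DMSO, with a median difference of 0.00, against 6257 higher and 7218 lower of 19775 genes with a median of -0.01. None of the 50 passed. NAP1L5, a nucleosome assembly protein gene, stood at 7.03 and 7.52 under ATRA, against 6.76 under DMSO (0.51), and INPP5F, an inositol phosphatase gene, at 7.31 and 8.31 under ATRA, against 7.11 under DMSO (0.70). With the siRNA TFPI2, a protease inhibitor gene, differed by 0.17, 0.25 and 0.26 in experiments 1, 2 and 3, and NDN, a growth suppressor gene of the Prader-Willi region, by 0.23, 0.01 and 0.29. The siRNA array was higher in every experiment for 7 of the 50 and lower for 5, against 13.1% and 11.9% of all genes. The other genes the naming rule picked were TP73 (-0.26), AXL (-0.32) and RB1 (0.50) for ATRA and COBL (mean 0.11), NAP1L5 (-0.13) and TP73 (-0.10) for the siRNA. Relative to experiment 2, TP73, AXL and RB1 differed by -0.15, -0.23 and 0.18 in experiment 1. In experiment 3 they differed by -0.36, -0.42 and 0.82.

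Genes that keep imprints and DNA methylation were measured with 26 members. Of these 17 had a higher and 3 a lower mean in both ATRA experiments, against 31.6% and 36.5% of all genes. Only 1 of the 26 was dim, against 6893 of 19775 genes, so the 2 sets differ in brightness. The median of the 26 was 0.18, but 0.04 in experiment 1 against 2, and none passed. HELLS, a chromatin remodeller needed for DNA methylation, stood at 9.07 and 9.94 under ATRA, against 8.84 under DMSO. CTCFL, the testis paralogue of the insulator protein CTCF, stood at 10.54 and 10.68 under ATRA, against 10.31 under DMSO. UHRF1, which brings the maintenance methyltransferase to newly copied DNA, stood at 9.67 and 10.33 under ATRA, against 9.56 under DMSO, and CTCF itself at 9.47 and 9.45 under ATRA, against 9.43 under DMSO. ARID4B (0.34), TET2 (0.37) and KDM1B (0.43) followed for ATRA. Relative to experiment 2, these 3 differed by 0.21, 0.12 and 0.12 in experiment 1. In experiment 3 they differed by 0.48, 0.62 and 0.74. The siRNA array was higher in every experiment for 3 of the 26 and lower for 2, against 13.1% and 11.9% of all genes. For the siRNA the mean differences were 0.14 for TET2, -0.10 for TET3, 0.10 for UHRF1, -0.09 for DNMT3A and 0.07 for CTCF.

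The Notch pathway, to which DLK1 is linked by its EGF-like repeats, was measured with 35 members. Of these 11 were higher and 14 lower in both ATRA experiments, against 31.6% and 36.5% of all genes. The median of the 35 was 0.10, but -0.04 in experiment 1 against 2, so its sign rested on experiment 3. HES4, a transcriptional repressor downstream of Notch, stood at 6.89 and 6.50 under ATRA, against 7.17 under DMSO, and the ligand gene JAG1 at 6.21 and 6.13 under ATRA, against 6.34 under DMSO. Neither passed, nor did any other member. With the siRNA the receptor gene NOTCH2 differed by 0.17, 0.03 and 0.12 and JAG1 by 0.01, 0.12 and 0.09, and 3 of 35 were higher and 2 lower in every experiment, against 13.1% and 11.9% of all genes. EGFL7 (-0.33), APH1B (0.43) and MAML2 (0.76) were also picked for ATRA, and NCSTN (mean 0.16), MAML3 (-0.13) and NOTCH4 (-0.06) for the siRNA. Relative to experiment 2, EGFL7, APH1B and MAML2 differed by -0.31, 0.20 and 0.20 in experiment 1. In experiment 3 they differed by -0.36, 0.65 and 1.32.

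The IGF pathway, which IGF2 activates and GRB10 dampens, was measured with 27 members (median 0.02, also in experiment 1 against 2). Of these 12 were higher and 9 lower in both ATRA experiments, against 31.6% and 36.5% of all genes. FOXO1, a transcription factor that insulin and IGF signals hold out of the nucleus, stood at 6.71 and 7.20 under ATRA, against 6.25 under DMSO (0.70, adjusted p = 0.995 in limma on experiment means). IRS2, a docking protein of the insulin and IGF1 receptors, stood at 8.08 and 8.61 under ATRA, against 7.67 under DMSO (0.67). IGFBP4, an IGF-binding protein gene, differed by -0.28, -0.09 and -0.31 with the siRNA, and 4 of 27 members were higher and 7 lower in every experiment, against 13.1% and 11.9% of all genes. STC2 (0.82), IGF1 (-0.32) and IGF1R (0.44) followed for ATRA, and AKT2 (mean -0.18), IRS2 (-0.16), IGF2BP2 (-0.12) and PAPPA (0.09) for the siRNA. Relative to experiment 2, STC2, IGF1 and IGF1R differed by 0.21, -0.12 and 0.11 in experiment 1. In experiment 3 they differed by 1.43, -0.53 and 0.76. None of the 27 passed for ATRA or for the siRNA.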

How the data were processed

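Affymetrix HG-U133 Plus 2.0 arrays were used to measure RNA. The deposited values are log2 expression; per the series' design text the authors applied RMA with BRB-ArrayTools, whose version is not known here. The table held 54675 probe sets; 62 control probe sets were left out. The annotation supplied with the series paired 41091 of the others with 1 gene, 1801 with several and 11721 with none, and 0 symbols needed updating.

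Every probe set was fitted with limma 3.58.1 in R 4.3.3 (lmFit, eBayes with an intensity trend) and adjusted by Benjamini-Hochberg over all 54613 at a threshold of 0.05. The siRNA fit used 6 arrays with treatment as covariate, the ATRA fit the mean of both arrays of each experiment, and the difference of siRNA effects 4 groups, each DMSO group being 1 array assumed to vary like the others. The number of arrays limits precision. The fits were tested on simulated data in which each array had independent noise and no shift shared by an experiment. The real arrays do share such shifts, so the simulation does not show how the fits behave with them.

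Arrays with the same experiment number were treated as pairs in the differences within experiments and in the fits blocked on experiment. The main siRNA fit and the main fit of the difference of siRNA effects did not use this pairing. The sample titles give the experiment numbers, and arrays of one experiment departed from their group means together (r = 0.703, 0.772 and 0.879). Arrays of experiments 1 and 2 also did so with each other (0.53 and 0.594), and both ran against experiment 3 (-0.785 to -0.693).

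Members and lists were chosen with earlier results of these data known. Named from each list were up to 5 bright genes by smallest p for ATRA and up to 5 by largest siRNA difference of one sign in 3 experiments. The 5 genes most like DLK1 were taken by Pearson r. Alternatives covered gene summaries, dim probe sets, normalisation, the intensity trend, blocks and left-out arrays. Gene coordinates are not given because the arrays name no build; sequences are RefSeq's on GRCh38.p14.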

Additional observations from a re-analysis of the deposited data

How the results depend on the processing

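The counts of probe sets past the threshold were 0 in all 3 tests (siRNA, ATRA and the difference of siRNA effects between treatments), and were 0 with genes in place of probe sets, without dim probe sets, after quantile normalisation or median centring, and without the intensity trend. With the experiment as a replicate block (paired analysis) the siRNA count was 1, and 5 when each gene was also represented by its brightest probe set, a setting chosen after seeing the data. The block left the count for the difference of siRNA effects at 0 (1531 with an unadjusted p below 0.05). Leaving out single arrays or whole experiments gave siRNA counts of 0 to 1, the 1 without experiment 3, with or without the block. For ATRA, 6 arrays gave 2 with the experiment as a random block (2 by gene, chosen after seeing the data) and 1 without a block. Experiment 1 against 2 alone gave 97 and experiment 3 against 2 alone 13872; arrays within an experiment then serve as replicates. In experiment 3 against 2, DLK1 (-0.71, adjusted p = 0.00281), MEG3 (-1.82, 6.48e-05) and MEST (0.74, 0.00262) passed at their brightest probe sets. Averaging both DLK1 probe sets lowered its siRNA difference to 0.20, since 1 of them is dim. Leaving out an experiment left that difference between 0.35 and 0.51. For the difference of siRNA effects, leaving out experiment 1 or 3 left no residual degrees of freedom and gives values without a test, -0.32 and -0.05 for DLK1.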
